A study of Hordeum vulgare with 12 samples.

Results

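Protein kinases pass signals by adding phosphate groups to other proteins, protein phosphatases remove them, and glutaredoxins reduce disulfide bonds with glutathione. In plants most kinase genes encode receptor-like kinases, membrane proteins whose outer domain binds a ligand such as a cell wall fragment, a sugar, a peptide or a microbial molecule, and whose inner kinase domain passes the signal to cytoplasmic kinases. The outer domain names the family. Here the genes of protein modification that the study had listed as higher in older barley stem bases were followed in 4 groups of seedlings, with most weight on plants carrying AtCKX1.

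The set held 160 genes of the 26073 identifiers in the count files. A gene was taken when its first functional category in the readable part of the study's table of genes up-regulated at 10DAG (1342 genes) was protein modification, leaving out a few genes named beforehand. That table came from the wild-type comparison of ages, so every wild-type age difference below chose the genes and is given as a description only. By the outer domain or class of the encoded protein, 99 genes were membrane receptor-type kinases in 8 families, 35 were cytoplasmic kinases or a kinase subunit in 3 families, and 26 were phosphatases, glutaredoxins and other enzymes. The genes are named by their identifiers, since the barley gene table at hand matched none of them, and for the same reason no sequence or position is given.

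The 12 libraries were made from the stem base (crown), where crown roots form, of barley cv. Golden Promise. There were 3 libraries each of the wild type 1 day after germination (1DAG), the wild type 10 days after germination (10DAG), AtCKX1-overexpressing plants at 1DAG and AtCKX1-overexpressing plants at 10DAG. AtCKX1 is an Arabidopsis cytokinin dehydrogenase, an enzyme that breaks down cytokinins, and the labels describe the overexpressing plants as holding less of these hormones. The sample labels speak of a line and the series text of lines, so the number of lines behind the 3 replicates is not known. The labels do not say what drives the transgene or whether the replicates came from separate sowings, so the p-values measure the spread between these libraries. Grains of both genotypes germinated on wet filter paper and the older seedlings were then grown in hydroponic culture, so age and medium cannot be told apart. The study's methods give a longer stem segment at 10DAG and the labels 1 length for all samples, so, if the methods hold, segment length cannot be told apart from age either.

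Between 36100002 and 51997655 reads per library were assigned to genes. The transgene, listed as AT2G41510, had 0 counts in the 6 wild-type libraries and 7 to 42 counts in each AtCKX1 library. These counts were few for libraries of this depth and uneven, with 16, 11 and 18 at 1DAG and 42, 7 and 12 at 10DAG. The crown root genes CRL1.1 and SCR-like1 had counts in every library. Relative to the library total, CRL1.1 was lower and SCR-like1 higher at 10DAG in both genotypes, and the ages did not overlap. Wild-type 1DAG replicate 1 stood apart, with a mean correlation of 0.95 with its own group over all genes tested, against 0.964 to 0.989 for the other 11 libraries. Levels are counts relative to the library total (CPM, the usual scale for sequencing depth), adjusted by TMM, and they compare libraries, not genes, since gene length was not known. A gene was called when it changed by at least 2-fold (a log2 fold change of 1) and its p from edgeR's quasi-likelihood test, adjusted by Benjamini-Hochberg over all genes tested, was no higher than 0.05.

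The whole set was more abundant at 10DAG than at 1DAG in AtCKX1 stem bases. In AtCKX1 its summed level was 1976 ± 145 CPM in the younger and 5252 ± 446 CPM in the older stem bases (SD, n = 3 each). In the wild type, whose libraries chose the genes, it was 1731 ± 210 CPM and 5012 ± 566 CPM (SD, n = 3 each). The ranges of the ages did not overlap in either genotype, and those of the genotypes overlapped at each age.

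In the 6 AtCKX1 libraries, which played no part in the choice of the genes, 138 of the 160 genes (86.2%) were called higher at 10DAG and 0 were called lower. Among all 19574 genes tested, 16.8% were called higher and 12.7% lower. The median log2 fold change of the set was 1.76, with quartiles of 1.24 and 2.45, against -0.02 over all genes tested. All 160 estimates were positive, and the 3 libraries of 10DAG lay above the 3 of 1DAG for 157 genes (98.1%), as they did for 34.8% of all genes tested. The other 1145 genes of the same readable table had a median of 1.46, with 77.5% called higher and 91.9% without overlap. The shares of the set thus lay nearer to those of the other genes chosen on the wild-type ages than to those of all genes.

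Of the 22 genes not called, 19 had an adjusted p of at most 0.05 by edgeR but changed by less than 2-fold. MLOC_45713, an L-type lectin receptor-like kinase, changed by over 2-fold with an adjusted p of 0.0564 by edgeR, and MLOC_77064 and MLOC_10149 met neither limit. With a test against a 2-fold change (glmTreat of edgeR) 99 genes were called higher, against 9.99% of all genes tested. Leaving out 1 AtCKX1 library at a time gave 127 to 146 calls, all higher at 10DAG.

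The 12 photosynthesis genes of the same table were summed as possible markers of green tissue. They too had been listed as higher at 10DAG in the wild type, so their wild-type rise was fixed by that choice. Photosynthesis genes outside the table were not used here. In the study's own enrichment analysis photosynthesis was a category over-represented among genes down-regulated at 10DAG. The sum of these 12 genes therefore does not stand for photosynthesis genes in general or for the amount of green tissue. Their sum was 191 to 224 CPM in AtCKX1 at 1DAG and 1206 to 1317 CPM at 10DAG, and 174 to 288 CPM and 863 to 1067 CPM in the wild type. Of the 12 genes, 9 were called higher between the AtCKX1 ages, 11 had no overlap there, and none was at 0 in every library. Among the 1145 tested genes of the table outside the set, these 12 included, 77.5% were called higher and 91.9% had no overlap. Over all genes tested the shares were 16.8% and 34.8%. The counts are therefore not read as a result about photosynthesis genes. Without MLOC_37052 (PsbR, a photosystem II subunit), the most abundant of them, the sum was 132 to 178 CPM in AtCKX1 at 1DAG and 345 to 386 CPM at 10DAG. The part of tissue composition in the differences between ages was not tested, and fewer cells of a type and less RNA per cell cannot be told apart in these bulk samples.

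**Figure D1:**
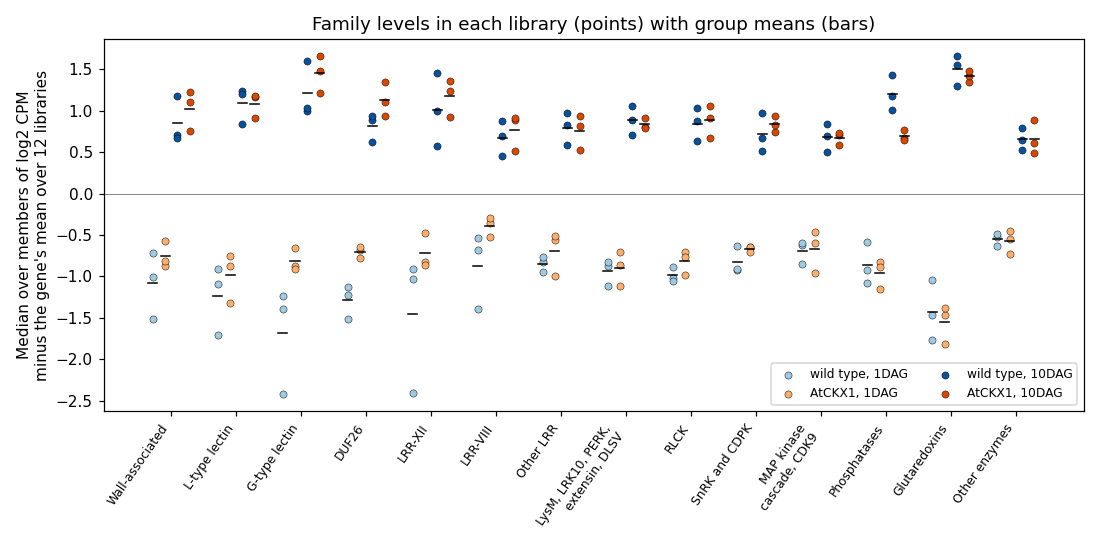
Level of the 14 families in each library. Each point is the median over the genes of a family of log2 CPM minus the gene's own mean over the 12 libraries, and bars are means of 3 libraries. All families lie below 0 in the 6 libraries of 1DAG and above 0 in the 6 of 10DAG, and wild-type 1DAG replicate 1 lies lowest for the G-type lectin family (-2.42) and the LRR-XII family (-2.40).

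Wall-associated kinases span the plasma membrane and bind pectin in the cell wall. Of 14 genes of this family, 12 were called higher at 10DAG in AtCKX1, with a median log2 fold change of 1.97 and a range of 0.49 to 6.19. Counts of called genes in this and the following families stand beside 77.5% called higher among the other readable genes of the table. Over all genes tested the share was 16.8%, and the counts are not read as results about a family. The largest change belonged to MLOC_48019, at 0.998, 0.693 and 0.507 CPM in AtCKX1 at 1DAG and 49.0, 67.9 and 45.1 CPM at 10DAG. Its wild-type levels were 0.675, 0.46 and 1.29 CPM at 1DAG and 21.3, 11.8 and 19.8 CPM at 10DAG. The gene was thus near 1 CPM in all 6 young libraries and far above it in all 6 older ones, highest in AtCKX1. Its log2 fold change between the AtCKX1 ages was 6.19 (SE 0.27, edgeR adjusted p = 4.05e-06). At the other end, MLOC_64880 had 25.8, 23.5 and 30.3 CPM in AtCKX1 at 1DAG and 34.6, 41.6 and 36.5 CPM at 10DAG. The groups did not overlap, but the log2 difference of 0.49 (SE 0.12, edgeR adjusted p = 0.00784) was the lowest of the 160 and below the 2-fold limit. MLOC_52313 went from 27.2 to 32.3 CPM at 1DAG to 47.2 to 53.2 CPM at 10DAG, a log2 difference of 0.76 that also stayed below the limit.

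L-type lectin receptor-like kinases carry a legume lectin domain outside the cell, and in Arabidopsis a member of the family is a receptor of extracellular ATP. With 25 genes this was the largest family. In AtCKX1, 23 were called higher at 10DAG, with a median log2 fold change of 1.81. MLOC_77880 had 0 counts in all 3 AtCKX1 libraries of 1DAG and 18, 24 and 15 counts at 10DAG. In the wild type it had 0, 0 and 1 counts at 1DAG and 7, 8 and 13 at 10DAG, too few for the edgeR filter there. It was therefore at least 18.8-fold higher at 10DAG in AtCKX1, taking 3 counts over the 3 libraries as the floor, a bound that covers counting error only. With this gene at its bound the family median remained 1.81, and the largest other change was 4.10. The 2 genes not called were MLOC_45713, the near miss given above, and MLOC_15183. MLOC_15183 had 9.68, 9.63 and 10.4 CPM at 1DAG and 17.9, 13.6 and 18.7 CPM at 10DAG in AtCKX1, with a log2 difference of 0.74 (SE 0.14, edgeR adjusted p = 0.00192). Reads that aligned to more than 1 place were not counted, so values of close relatives in this and the other large families are less certain.

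G-type lectin receptor-like kinases, also called S-domain kinases, include the S-locus kinase of self-incompatibility in Brassica. All 11 genes of this family were called higher at 10DAG in AtCKX1, with a median log2 fold change of 1.99 and a range of 1.30 to 3.33. Genes of the SD-2 group (6 genes, median 2.64) had larger estimates than those of SD-1 (5 genes, median 1.76), a difference that was not tested. MLOC_63679, of the SD-2 group, had 0.418, 0.411 and 0.435 CPM in AtCKX1 at 1DAG and 5.51, 3.31 and 4.06 CPM at 10DAG. Both AtCKX1 groups were far apart, with a log2 fold change of 3.33 (SE 0.27, edgeR adjusted p = 1.96e-05). MLOC_60266, of the same group, had 0 counts in the 3 wild-type libraries of 1DAG. Its levels were 0.597, 0.561 and 0.995 CPM in the wild type at 10DAG, 0.209, 0.0216 and 0.0483 CPM in AtCKX1 at 1DAG, and 0.7, 0.909 and 1.04 CPM in AtCKX1 at 10DAG. In AtCKX1 the log2 fold change was 3.21 (SE 0.60, edgeR adjusted p = 0.00164), and AtCKX1 replicate 1 held most of the 12 counts found at 1DAG. Against a floor of 3 counts, the wild type at 10DAG was at least 30.2-fold above the wild type at 1DAG, a description only.

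DUF26 kinases, or cysteine-rich receptor-like kinases, have a pair of cysteine-rich domains outside the cell. In this family 7 of 10 genes were called higher at 10DAG in AtCKX1, with a median log2 fold change of 1.84. MLOC_39510 had 0.232, 0.0866 and 0.121 CPM in AtCKX1 at 1DAG and 2.55, 3.98 and 3.15 CPM at 10DAG. All 3 older libraries lay well above the younger ones, with a log2 fold change of 4.43 (SE 0.39, edgeR adjusted p = 2.71e-05). The wild type had 0.101 to 0.295 CPM of this transcript at 1DAG and 1.51 to 2.43 CPM at 10DAG. The 3 genes of the family that were not called had log2 estimates of 0.76 to 0.97, among them MLOC_75743, whose 1DAG level is taken up with the genotypes below.

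Leucine-rich repeat (LRR) receptor-like kinases bind peptides, hormones and microbial proteins. Group LRR-XII holds the immune receptors FLS2 and EFR of Arabidopsis and XA21 of rice. Of its 9 genes here 8 were called higher at 10DAG in AtCKX1, with a median log2 fold change of 2.19. MLOC_5295 had 0.116, 0.0866 and 0.145 CPM in AtCKX1 at 1DAG and 3.16, 3.49 and 2.68 CPM at 10DAG, against 0.0726 to 0.19 CPM and 1.62 to 2.43 CPM in the wild type. The ages were separated in both genotypes, and in AtCKX1 the log2 fold change was 4.71 (SE 0.31, edgeR adjusted p = 8.65e-06).

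Group LRR-VIII, whose outer part joins leucine-rich repeats to a malectin-like domain in many members, gave the smallest family median, 1.03, and 4 of its 7 genes were called. Its strongest change was that of MLOC_65679, at 26.8, 20.1 and 28.3 CPM in AtCKX1 at 1DAG and 102.7, 88.8 and 102.0 CPM at 10DAG. The wild-type values were 14.7, 21.0 and 24.3 CPM and then 81.8, 80.7 and 109.5 CPM. Both genotypes thus had close levels at each age, and the log2 fold change in AtCKX1 was 1.95 (SE 0.14, edgeR adjusted p = 1.21e-05). MLOC_10149 of this group, named here after its values had been seen, behaved otherwise. It had 15.3, 3.81 and 12 CPM in AtCKX1 at 1DAG and 22.5, 13.1 and 19.7 CPM at 10DAG, and the ages overlapped. Its wild-type levels were 0.337, 2.88 and 2.57 CPM at 1DAG and 21.6, 41.2 and 35.2 CPM at 10DAG.

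The remaining 12 LRR genes had a median log2 fold change of 1.51 between the AtCKX1 ages, and 9 were called. All 4 genes of LRR-Xb, the group of the phytosulfokine receptors of Arabidopsis, were called (1.24 to 1.83), as were the 3 of LRR-XV (2.11 to 3.97). Neither of the 2 genes of LRR-XI, the group of CLAVATA1 in Arabidopsis, reached the 2-fold limit, nor did the gene of LRR-Xc. MLOC_69222 of LRR-XV had 0.0464, 0.0866 and 0.121 CPM in AtCKX1 at 1DAG, from 2 to 5 counts each, and 2.01, 0.747 and 1.38 CPM at 10DAG. The older libraries were all higher but differed among themselves, and the log2 fold change was 3.97 (SE 0.52, edgeR adjusted p = 0.000235). MLOC_55950 of LRR-XI had 24.3, 21.2 and 26.3 CPM at 1DAG and 33.1, 41.8 and 38.4 CPM at 10DAG in AtCKX1. The groups did not overlap and the log2 difference was 0.65 (SE 0.13, edgeR adjusted p = 0.00188).

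The last 11 receptor-type genes belonged to small families, and 10 were called higher at 10DAG in AtCKX1. They included both LysM kinases (1.34 and 1.77), a family whose members take part in chitin perception, all 4 genes of the LRK10-1-like group (1.49 to 1.76) and all 3 DLSV genes (2.04 to 3.34). The gene not called was an extensin-like kinase (0.77). MLOC_76287, a proline-rich extensin-like receptor kinase (PERK), had 0.279, 0.173 and 0.314 CPM in AtCKX1 at 1DAG and 2.76, 2.83 and 2.97 CPM at 10DAG. Its wild-type levels were 0.176 to 0.484 CPM and 2.89 to 3.34 CPM, so that both genotypes covered nearly the same range at each age. The log2 fold change in AtCKX1 was 3.46 (SE 0.29, edgeR adjusted p = 2.35e-05).

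**Figure D2:**
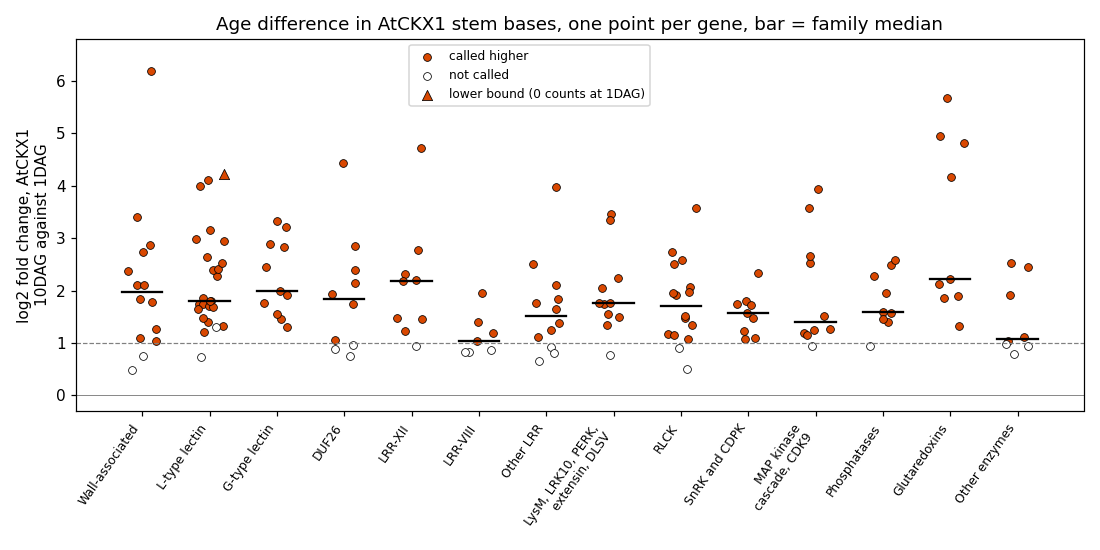
Log2 fold change between 10DAG and 1DAG in AtCKX1 for each of the 160 genes, by family. Filled points were called higher, open points were not called, the triangle is the lower bound of the L-type lectin gene MLOC_77880, bars are family medians and the dashed line marks a 2-fold change. All points lie above 0, and family medians run from 1.03 (LRR-VIII) to 2.23 (glutaredoxins).

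Receptor-like cytoplasmic kinases (RLCK) lack an outer domain and act below membrane receptors. In Arabidopsis group RLCK-VIIa holds BIK1 and PBS1, which relay immune signals. In AtCKX1 14 of 16 RLCK genes were called higher at 10DAG, with a median log2 fold change of 1.72, and 7 of the 8 genes of RLCK-VIIa were among them. MLOC_52117, an RLCK-VIIa gene, had 0.418, 0.195 and 0.387 CPM in AtCKX1 at 1DAG and 4.61, 2.24 and 5.16 CPM at 10DAG. The wild-type levels were 0.0211, 0.121 and 0.126 CPM at 1DAG and 3.75, 2.99 and 5.48 CPM at 10DAG. The older libraries of both genotypes covered similar levels, and all 3 young AtCKX1 libraries lay above the 3 young wild-type ones. The log2 fold change between the AtCKX1 ages was 3.57 (SE 0.42, edgeR adjusted p = 0.000127). MLOC_77064 of group RLCK-Os had 1.07, 0.216 and 0.483 CPM in AtCKX1 at 1DAG and 0.881, 0.687 and 0.963 CPM at 10DAG. These groups overlapped, and the log2 difference of 0.50 (SE 0.51, edgeR adjusted p = 0.41) was not called. It was at 0.316 to 0.533 CPM and 0.541 to 3.26 CPM in the wild type.

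The SnRK and calcium-dependent kinases link energy status, abscisic acid and calcium to protein phosphorylation. All 9 genes of this group were called higher at 10DAG in AtCKX1, with a narrow range of log2 fold changes from 1.08 to 2.33. They were 4 SnRK3 genes, whose products bind calcineurin B-like calcium sensors (median 1.65), 2 SnRK2 genes of abscisic acid and osmotic signalling (median 1.44), 2 calcium-dependent kinases (median 1.15) and a gamma regulatory subunit of SnRK1 (1.75). MLOC_67101, annotated as a CBL-interacting kinase of SnRK3, had 4.41, 3.57 and 4.16 CPM in AtCKX1 at 1DAG and 18.3, 19.8 and 23.4 CPM at 10DAG. In the wild type it had 9.83, 4.33 and 5.82 CPM at 1DAG and 27.9, 44.3 and 35.0 CPM at 10DAG. The older wild-type libraries were all above the older AtCKX1 libraries. Between the AtCKX1 ages the log2 fold change was 2.33 (SE 0.15, edgeR adjusted p = 8.17e-06).

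The MAP kinase cascade passes signals through a chain of kinases that phosphorylate each other in turn. Here it was represented by its upper tiers, and with a CDK9 kinase and an MLK-I kinase the group held 10 genes. In AtCKX1 9 were called higher at 10DAG, with a median log2 fold change of 1.39. The 4 Raf-like genes had estimates near 2-fold (0.95 to 1.24), while both MEKK genes (2.52 and 2.66) and the MLK-I gene (3.58) had larger ones. The MEKK genes, named here after their values had been seen, rested on few counts, highest in AtCKX1 10DAG replicate 1. MLOC_3643 had 11, 3 and 11 counts in AtCKX1 at 1DAG and 93, 31 and 26 at 10DAG. MLOC_56670 had 15, 4 and 21 and then 197, 32 and 34. It was called in 10 of the 15 settings that kept the limits of the call, with estimates from 1.30 to 3.18. MLOC_57740, a MAP4K gene, rested on few reads, with 2, 1 and 4 counts in AtCKX1 at 1DAG and 38, 64 and 16 counts at 10DAG. Its wild-type libraries held 29, 8 and 5 counts at 1DAG and 96, 94 and 35 at 10DAG. The AtCKX1 ages were separated, with a log2 fold change of 3.93 (SE 0.63, edgeR adjusted p = 0.000692), and the 3 young wild-type libraries held more counts than the 3 young AtCKX1 libraries.

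Protein phosphatases of type 2C oppose kinases, and those of clade A keep the abscisic acid pathway off until the hormone binds its receptor. Of 9 phosphatase genes 8 were called higher at 10DAG in AtCKX1, with a median log2 fold change of 1.60. The 3 clade A genes were among them, with 1.96, 2.49 and 2.58. MLOC_77966 of clade A had 1.16, 0.779 and 0.846 CPM in AtCKX1 at 1DAG and 4.11, 6.22 and 6.51 CPM at 10DAG. The wild type had 2.05, 0.92 and 1.61 CPM and then 8.61, 13.8 and 13.9 CPM. The gene was higher with age in both genotypes, and at 10DAG the wild-type libraries lay above the AtCKX1 libraries. The log2 fold change between the AtCKX1 ages was 2.58 (SE 0.26, edgeR adjusted p = 6.07e-05).

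Glutaredoxins use glutathione to reduce or modify cysteines of other proteins. The 9 genes were all called higher at 10DAG in AtCKX1, with a median log2 fold change of 2.23, the highest of the 14 families. The estimates fell into 5 from 1.33 to 2.23 and 4 from 4.16 to 5.67. MLOC_23367 had 0.0929, 0.13 and 0.121 CPM in AtCKX1 at 1DAG and 5.24, 8.0 and 4.76 CPM at 10DAG. In the wild type it had 0, 3 and 3 counts at 1DAG and 9.39, 9.52 and 4.69 CPM at 10DAG. It was thus barely present in young stem bases of either genotype, and its log2 fold change between the AtCKX1 ages was 5.67 (SE 0.33, edgeR adjusted p = 6.5e-06).

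The other 8 enzymes, of glycosylation, lipid anchoring, hydroxylation, disulfide formation and cleavage of proteins, had a median of 1.07, and 5 were called. MLOC_52335, annotated to the synthesis of dolichol, the lipid that carries sugars for protein glycosylation, had 1.18, 0.736 and 0.677 CPM in AtCKX1 at 1DAG and 6.12, 4.36 and 4.63 CPM at 10DAG. The AtCKX1 ages were separated, with a log2 fold change of 2.53 (SE 0.27, edgeR adjusted p = 8.37e-05). A presenilin-like gene (1.11), a signal peptidase (1.03), a component of the glycosylphosphatidylinositol transamidase (1.91) and a glycosyltransferase (2.45) were also called.

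**Figure D3:**
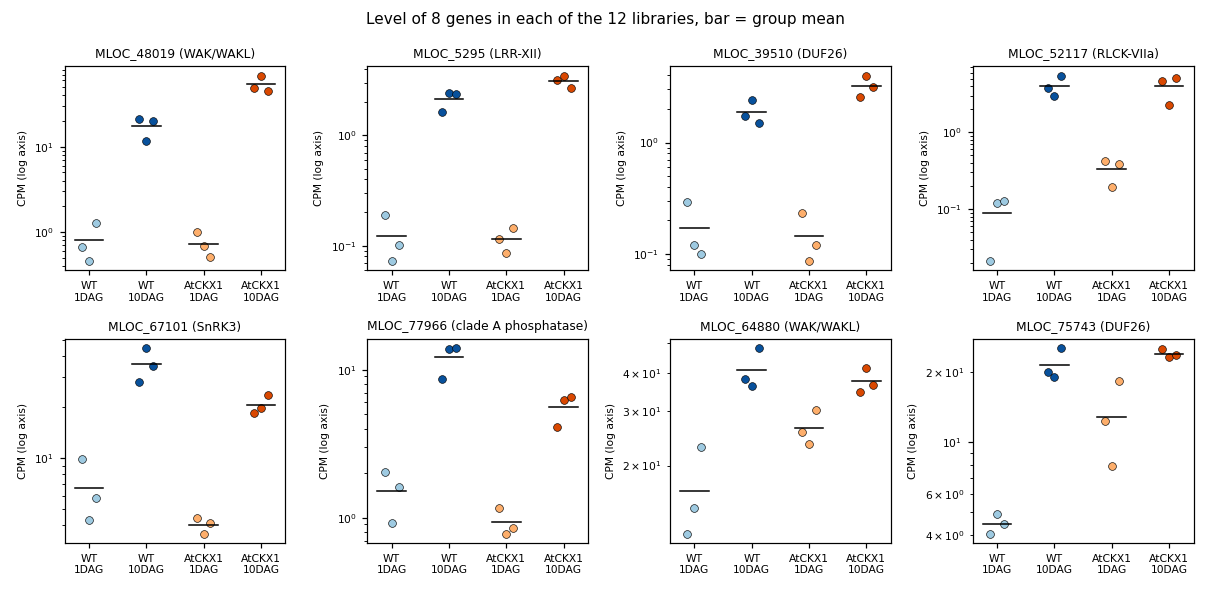
CPM on a log axis of 8 genes in the 12 libraries, with bars at the group means (n = 3). The ages do not overlap in either genotype for the 8 genes. The AtCKX1 libraries of 1DAG lie above those of the wild type for MLOC_75743 (7.94 to 18.4 CPM against 4.05 to 4.94 CPM), MLOC_52117 and MLOC_64880.

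Another 10 genes of the same table have protein modification as a later category only, and they add hormone and peptide receptors to the picture. Of these 9 were called higher at 10DAG in AtCKX1 and 0 lower. Among the 1145 tested genes of the table outside the set, these 10 included, 77.5% were called higher. Over all genes tested, 16.8% were called higher and 12.7% lower. The count is therefore not read as a result about these receptors. A receptor of CEP peptides, MLOC_11189, had a log2 fold change of 3.23 (SE 0.30). The 5 CrRLK1L genes, the family of the RALF peptide receptors, ranged from 1.30 to 4.15. A receptor kinase of the brassinosteroid receptor group (BRI/BRL) was at 1.30 (SE 0.14) and a brassinosteroid signalling kinase (BSK) at 1.11 (SE 0.09). Of the 2 phosphatases of the abscisic acid receptor complex, MLOC_19687 was called (1.58, SE 0.15) and MLOC_52176 was below the 2-fold limit (0.87, SE 0.13).

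In the wild-type libraries that chose the genes, the median log2 fold change between ages was 2.06 over the 159 genes that passed the edgeR filter there, all at 1.04 or more. The genes just inside the limit of the choice were MLOC_55950 (1.04), MLOC_70652 (1.06), MLOC_26380 (1.07), MLOC_68196 (1.07) and MLOC_53862 (1.08). The genes just outside are not annotated in the sources used here. In AtCKX1 these 5 genes had log2 fold changes of 0.65, 2.04, 1.15, 1.11 and 1.27 in the same order. The log2 fold changes of the genotypes, which share no library, had a Pearson r of 0.731 across the 159 genes. Spearman rho was 0.737, and over 19330 genes Pearson r was 0.888. The 159 genes include MLOC_60266, whose wild-type estimate of 7.98 rests on 0 counts at 1DAG, and r without it is not given. Genes are not independent replicates, and a restricted range, as in a set chosen by 1 of the measures, changes r. The AtCKX1 value was the smaller in 107 of the 159 genes, a direction that the choice on wild-type values favours.

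**Figure D4:**
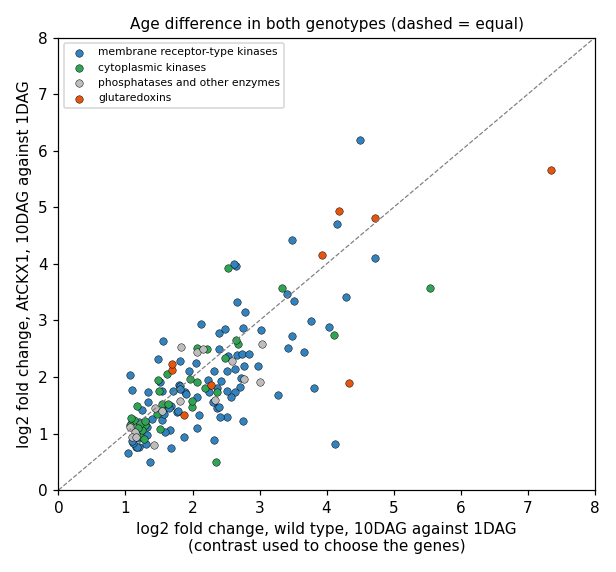
Log2 fold change between 10DAG and 1DAG in the wild type (x axis, the contrast that chose the genes) and in AtCKX1 (y axis), with 1 point per gene and a dashed line of equality. MLOC_60266 and MLOC_77880 are not drawn because a group had 0 counts or the wild-type filter removed the gene. Points rise along the line, with more of them below it than above it.

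The direct comparison of genotypes asks how the set differed in plants carrying AtCKX1. Since the wild-type libraries had chosen the genes as low at 1DAG and high at 10DAG, a higher AtCKX1 value at 1DAG, a lower one at 10DAG and a smaller age effect are each favoured by the choice and are not read as effects of the transgene. At 1DAG edgeR called 1 of the 160 genes, higher in AtCKX1, where 0.163% of 20212 genes tested were called higher, 0.341% lower and 0.505% in either direction. The median log2 difference was 0.23, against 0.03 over all genes, and 98 estimates were positive. All 3 AtCKX1 libraries lay above the wild type for 37 genes (23.1%, against 9.33% of all genes) and below it for 11 (6.88%, against 11.6%).

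The gene called at 1DAG was MLOC_75743, a DUF26 kinase. It had 4.05, 4.94 and 4.44 CPM in the wild type and 12.3, 7.94 and 18.4 CPM in AtCKX1 at 1DAG. At 10DAG the levels were 20.1, 19.1 and 25.3 CPM and 25.2, 23.2 and 23.6 CPM. The young AtCKX1 libraries thus lay between the young wild-type libraries and the older libraries of both genotypes. The log2 difference at 1DAG was 1.55 (SE 0.25, edgeR adjusted p = 0.0208), and the age difference in AtCKX1 was 0.89 (SE 0.27, edgeR adjusted p = 0.023), below the 2-fold limit. The 1DAG call was lost without wild-type replicate 1 (adjusted p = 0.0731), without AtCKX1 replicate 1 (adjusted p = 0.0731) and without AtCKX1 replicate 3 (adjusted p = 0.053). It was also lost with both wild-type 1DAG replicate 1 and wild-type 10DAG replicate 2 left out (0.0973), with the 6 libraries of 1DAG alone (0.256) and with glmTreat (0.859). Over 23 other settings the adjusted p by edgeR or DESeq2 ran from 2.69e-06 to 0.859. DESeq2 called 15 genes at 1DAG, 12 higher and 3 lower in AtCKX1, where it called 0.689% of all genes tested higher and 2.88% lower, so the number of genes that differ at this age depends on the tool.

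By family, the median log2 differences at 1DAG were highest for the G-type lectin (0.60), wall-associated (0.55), DUF26 (0.55) and LRR-XII (0.44) genes, and lowest for the glutaredoxins (-0.29) and phosphatases (-0.21). Wild-type 1DAG replicate 1 moved with these values. Without it the medians were 0.31, 0.32, 0.34 and 0.15 for the first 4 families, 0.31 for the glutaredoxins and -0.01 for the phosphatases, and 0.12 for the whole set, with 99 positive estimates. The L-type lectin median went from 0.30 to -0.05 and that of the other enzymes from 0.06 to -0.03. The signs for the glutaredoxins and for these families therefore rested on 1 library.

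At 10DAG 1 gene was called between the genotypes, again higher in AtCKX1, where 0.653% of all genes tested were called higher, 0.584% lower and 1.24% in either direction. The median log2 difference was 0.06, against -0.01 over all genes, and 86 estimates were positive. The libraries did not overlap for 23 genes higher in AtCKX1 (14.4%, against 11.7% of all genes) and for 17 genes lower (10.6%, against 11.5%). DESeq2 called 4 genes, 3 higher and 1 lower, where it called 1.2% of all genes tested higher and 1.41% lower. The photosynthesis sum given above was higher in AtCKX1 at this age through PsbR, at 500 to 625 CPM in the wild type and 820 to 972 CPM in AtCKX1. Without it the sums overlapped (331 to 442 CPM and 345 to 386 CPM), and of the 12 genes 3 were higher and 4 lower in AtCKX1 without overlap. The part of these genes in the comparison was not tested.

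The gene called at 10DAG was MLOC_48019, the wall-associated kinase described above, with 11.8 to 21.3 CPM in the wild type and 45.1 to 67.9 CPM in AtCKX1. The log2 difference was 1.60 (SE 0.32, edgeR adjusted p = 0.0299), in the direction that the choice of the genes did not favour. At 1DAG the log2 difference of this gene was -0.11 (SE 0.40), with overlapping libraries. The 10DAG call was lost when any 1 of the 6 libraries of 10DAG or AtCKX1 1DAG replicate 2 was left out (adjusted p from 0.0523 to 0.119), and also with wild-type 1DAG replicate 1 and wild-type 10DAG replicate 2 both left out (0.0502), with the replicate number as a block (0.0592) and with glmTreat (0.993). The estimate stayed between 1.40 and 1.77 in all 23 other settings, over which the adjusted p by edgeR or DESeq2 ran from 0.000104 to 0.993. The phosphatases had the lowest family median at 10DAG (-0.33) and are named here for that rank, after the values had been seen. Of 9 phosphatase genes 4 were lower in all 3 AtCKX1 libraries, against 11.5% of all genes tested, and none of them was called. MLOC_77966 had an estimate of -1.12 (SE 0.31, edgeR adjusted p = 0.107) and the SnRK3 gene MLOC_67101 one of -0.82 (SE 0.26, edgeR adjusted p = 0.164). Lower AtCKX1 values at 10DAG are favoured by the choice of the genes, so these are not read as effects of the transgene.

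The difference of the age effects, AtCKX1 minus wild type, was called by edgeR for 0 of the 160 genes, against 0.485% of all genes tested. At an unadjusted p under 0.05 there were 15 genes (9.38%, against 7.17% of all genes tested), and DESeq2 called 3, 2 with a larger and 1 with a smaller age effect in AtCKX1, where it called 1.46% of all genes tested in either direction. The median was -0.17, against -0.03 over all genes. The smallest adjusted p by edgeR was 0.162, for MLOC_75743 (-1.40, SE 0.35). MLOC_48019 had the opposite sign (1.71, SE 0.51, edgeR adjusted p = 0.32). The standard error of this difference was 0.19 for MLOC_55950 and 0.74 for MLOC_52117, so the precision varied widely between genes.

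**Figure D5:**
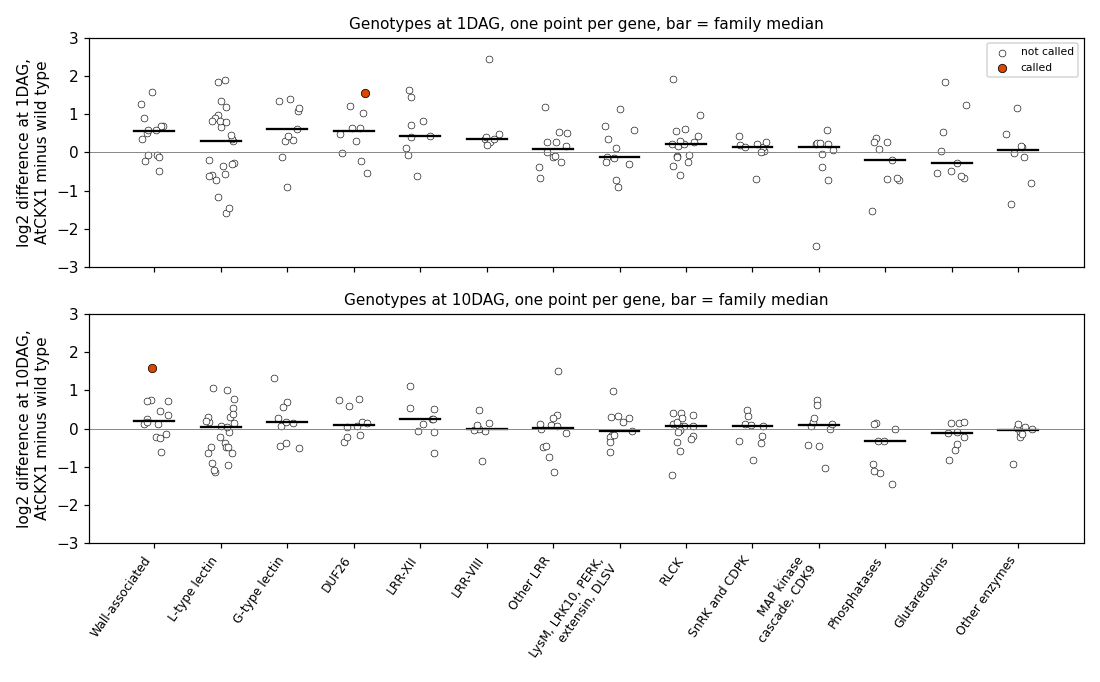
Log2 difference between AtCKX1 and wild type at 1DAG (top) and 10DAG (bottom) for each gene, by family. Filled points were called, open points were not, and bars are medians over all genes of a family. MLOC_60266 and MLOC_77880, with 0 counts in a group, are not drawn. The points lie on both sides of 0 in nearly every family, and 1 gene is called at each age.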

How the data were processed

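RNA-seq of stem bases was deposited by the authors as raw read counts per gene, 1 file per library, with no normalization. In their methods, reads of stranded libraries were trimmed, mapped by TopHat on the cv. Morex assembly IBSC_v1 and counted by strand with HTSeq 0.6.0 (submitters' processing notes). Reads matching several places, 7.02% to 10.3% per library, were not counted. Depth is given with the libraries above.

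The tests used edgeR 4.0.16 under R 4.3.3 (filterByExpr, TMM, robust quasi-likelihood test, Benjamini-Hochberg adjustment). The AtCKX1 ages were fitted in the 6 AtCKX1 libraries, the genotypes and the difference of age effects in all 12 with a mean per group, and the wild-type ages without a test. Standard errors are approximate (log2 fold change over the square root of the test statistic). The set, its 14 families and the tests were chosen with earlier results of these data known. Genes named are the largest called change in each family, the 5 lowest age differences in AtCKX1, the genes called between genotypes, those with 0 counts in a group, and a few said to be chosen later. On simulated data the AtCKX1 comparison called 95.8% of genes changed by 1.5 on the log2 scale. At the same change the genotype comparisons called 85.3% at 1DAG and 84.2% at 10DAG, and the difference of age effects 67.3%. The changed genes were not drawn from the least abundant genes, so the recovery of low-count genes is not known. They were drawn from genes in general, whereas the genes of the set varied more between replicates, as given below. The recovery of genes of the set was therefore not measured. Alternatives were DESeq2 1.42.0, other scalings, filters, limits and fits, a replicate block, and each library left out.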

Additional observations from a re-analysis of the deposited data

How the results depend on the processing

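Between the AtCKX1 ages, 119 (at least 10 counts in every library, 139 genes tested) to 157 genes (no fold limit) were called higher under the alternatives other than glmTreat (99), and the range without 1 library was 127 to 146. DESeq2 gave 139, all 12 libraries in the fit 137, and all 160 estimates stayed positive. Of the 138 genes, 105 were called in all 15 settings that kept the limits of the call. A gene that a setting's filter removed was taken as not called there. The other 33 genes thus include some that were not tested in every setting.

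At 1DAG the 1 call between genotypes became 15 with DESeq2, 2 with no filter on low counts, and 0 with glmTreat, with the 6 libraries of 1DAG alone, and without wild-type 1DAG replicate 1 and wild-type 10DAG replicate 2 together. Leaving out 1 library gave 0 to 5, with 5 without wild-type 1DAG replicate 3. At 10DAG the 1 call became 4 with DESeq2, 0 with glmTreat, 2 with the 6 libraries of 10DAG alone and 0 to 5 without 1 library, with 5 without wild-type 1DAG replicate 1. The difference of age effects gave 3 calls with DESeq2 and 0 to 1 without 1 library, the 1 being without AtCKX1 1DAG replicate 2. The wild-type median of 2.06 became 1.86 without both wild-type libraries named above and 1.89 to 2.17 without 1 library. The causes were not tested. Among the alternatives, shares of all genes called are given above only for DESeq2 between genotypes and for glmTreat between the AtCKX1 ages. The other counts of this section stand without such a share and are not read as results about the set.

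Deviations of same-numbered libraries from their group means correlated from -0.339 to 0.363, and those of different-numbered libraries from -0.418 to 0.349. With 3 libraries per group these values cannot decide whether the samples were paired by replicate number. With the number as a replicate block 139 genes were called between the AtCKX1 ages, 1 between genotypes at 1DAG, 0 at 10DAG and 0 for the difference of age effects.

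Of the values of single named genes under the alternatives, 350 stayed on their side of the limits, 16 lost a call and 7 gained one, and none changed direction. Low counts limit MLOC_77880, MLOC_60266, MLOC_57740 and MLOC_69222, and also the MEKK genes MLOC_3643 and MLOC_56670.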

Other observations

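The genes of the set varied more between replicates than genes in general. The median over genes of the SD of log2 CPM between the 3 libraries of a group was 0.49 for the set and 0.31 for all genes tested in the wild type at 1DAG, and 0.33 and 0.21 in the wild type at 10DAG. In AtCKX1 these medians were 0.28 and 0.17 at 1DAG and 0.23 and 0.16 at 10DAG, so that in both the set and all genes the wild-type groups had the wider spread. The cause was not tested.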
